A study of Mus musculus with 4 samples.

Results

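The genes described here encode the collagens, laminins and other proteins of the extracellular matrix and its basement membranes, with the enzymes that modify and cross-link them. They were chosen by gene symbol alone: every collagen chain, laminin chain and nidogen, fibronectin (Fn1), fibrillins 1 and 2, the prolyl and lysyl hydroxylases P4ha1 to P4ha3 and Plod1 to Plod3, all symbols that begin with Lox, and Serpinh1. The deposited table, as analysed here, lists 6940 genes, all with an adjusted p-value under 0.05 in the authors' deposited table, and 49 of them fit the choice. A further 24 of the 73 protein-coding genes with such symbols in the GENCODE annotation were not analysed here, among them Col4a4, Col5a3, Col8a1, Col9a2, Col14a1, Fbn2, Lamb3, Plod3 and all 4 transmembrane collagens. Every listed gene had thus been selected for a difference between genotypes, so counts below describe the listed genes only.

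Total RNA of cultured mouse oligodendrocytes, which make the brain's myelin, was sequenced in 2 control and 2 conditional knockout (cKO) libraries. All cultures held cortical cells of C57BL/6 pups, taken at postnatal day 5 and purified by panning on antibodies to GalC and O4, kept for 6 days in growth medium, and harvested after 24 h in a medium for differentiation that held triiodothyronine, a thyroid hormone, at 40 ng/mL. Controls were Zdhhc5fl/fl, and cKO cells were Olig1cre/+;Zdhhc5fl/fl. Both genotypes therefore carried the floxed alleles of Zdhhc5, which encodes a palmitoyltransferase, and only cKO cells carried Cre, inserted in the Olig1 locus and active in cells of the oligodendrocyte lineage; effects of Cre, of the altered Olig1 allele and of the loss of Zdhhc5 cannot be told apart. Whether a genotype's 2 libraries came from separate animals or cultures is not in the labels, so p-values measure the spread between these libraries, which may be technical. The listed genes held from 13672254 to 20068016 reads per library.

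Collagens are built from 3 chains wound into a triple helix. Fibrillar collagens make cables in connective tissue, whereas type IV collagen forms a sheet that, with laminin and nidogen, makes up the basement membrane. In the brain, basement membranes surround vessels and cover the surface beneath the meninges, and fibrillar collagens are made mainly by fibroblasts of the meninges and vessel walls. Chains are hydroxylated and folded in the endoplasmic reticulum and are cross-linked outside the cell by lysyl oxidases.

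Most of these matrix genes were higher in cKO cells, while a few, among them Col20a1, Col16a1, Col9a1, Col2a1 and both listed type XI chains, were lower. By limma, 39 of the 49 were higher and 10 were lower, where 46.7% of all listed genes were higher and 53.3% lower and 100% of them passed the test. Their median log2 fold change (cKO over control, called log2 change below) was 0.91, against -0.22 for all listed genes. At least 2-fold higher, on the log2(value + 1) scale, were 23 of the 49, compared with 5.68% of listed genes, and 3 of the 49 were at least 2-fold lower, compared with 11.7%. All 49 had separate values, both cKO libraries lying above or below both controls, as did 6939 listed genes, 100% when rounded. In all, these genes held 0.375% of the listed reads of either control library, against 0.534% of cKO 1 and 0.515% of cKO 2.

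Markers of other cells moved in the same libraries, where 46.7% of all listed genes were higher in cKO cells. Of 16 markers of pericytes and fibroblasts, cells that make much of the collagen of the brain's coverings and vessels, 11 were listed and all 11 were higher in cKO cells, with a summed level of 1176 and 1214 normalised reads in controls and 3284 and 3378 in the cKO libraries. None of the 11 was at 0: the matrix proteoglycan gene Dcn had 294 and 279.98 normalised reads in controls and 977 and 985 in the cKO libraries, and the receptor gene Pdgfrb had 299 and 335 against 716 and 748. Of 14 endothelial markers 6 were listed, 4 higher and 2 lower, the median log2 change being 1.78, with summed levels of 519 and 523 against 616 and 651. In controls, though not in the cKO libraries, most of that sum came from Kdr and Vwf, which fell (log2 changes -0.92 and -0.53). Eng, Emcn, Tie1 and Cdh5 rose, Cdh5 from 10 and 16.3 to 93.9 and 80.7 normalised reads. Astrocyte markers were listed for 11 of 12, 9 higher and 2 lower, summing to 511353 and 512203 against 771559 and 764521. Most of that sum was Gfap, with 351481 and 352111 normalised reads in controls and 557247 and 553584 in the cKO libraries. The 2 that fell were S100b and Aqp4 (log2 changes -1.63 and -0.16). Markers of microglia (6 of 12 listed, all 6 higher) summed to 2717 and 2643 against 3834 and 4038. Neuron markers (10 of 12 listed, 8 higher and 2 lower) summed to 18610 and 18926 against 17749 and 17532. In every library most of the neuron sum came from the 2 that fell, Map2 and Dcx (log2 changes -0.52 and -0.40). Markers of the labelled cell type were present in all 4 libraries, 14 of 15 being listed and all 14 lower in cKO cells, with sums of 432783 and 435152 normalised reads in controls and 107543 and 109468 in the cKO libraries. The 14 include Olig1, whose locus holds Cre in cKO cells only, so its fall may come from the altered allele. It had 12036 and 11945 normalised reads in controls and 7250 and 6438 in the cKO libraries. The part of any of these cells in the matrix results was not tested, and in bulk RNA a change in the number of cells of a type cannot be told apart from a change in RNA per cell.

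**Figure D1:**
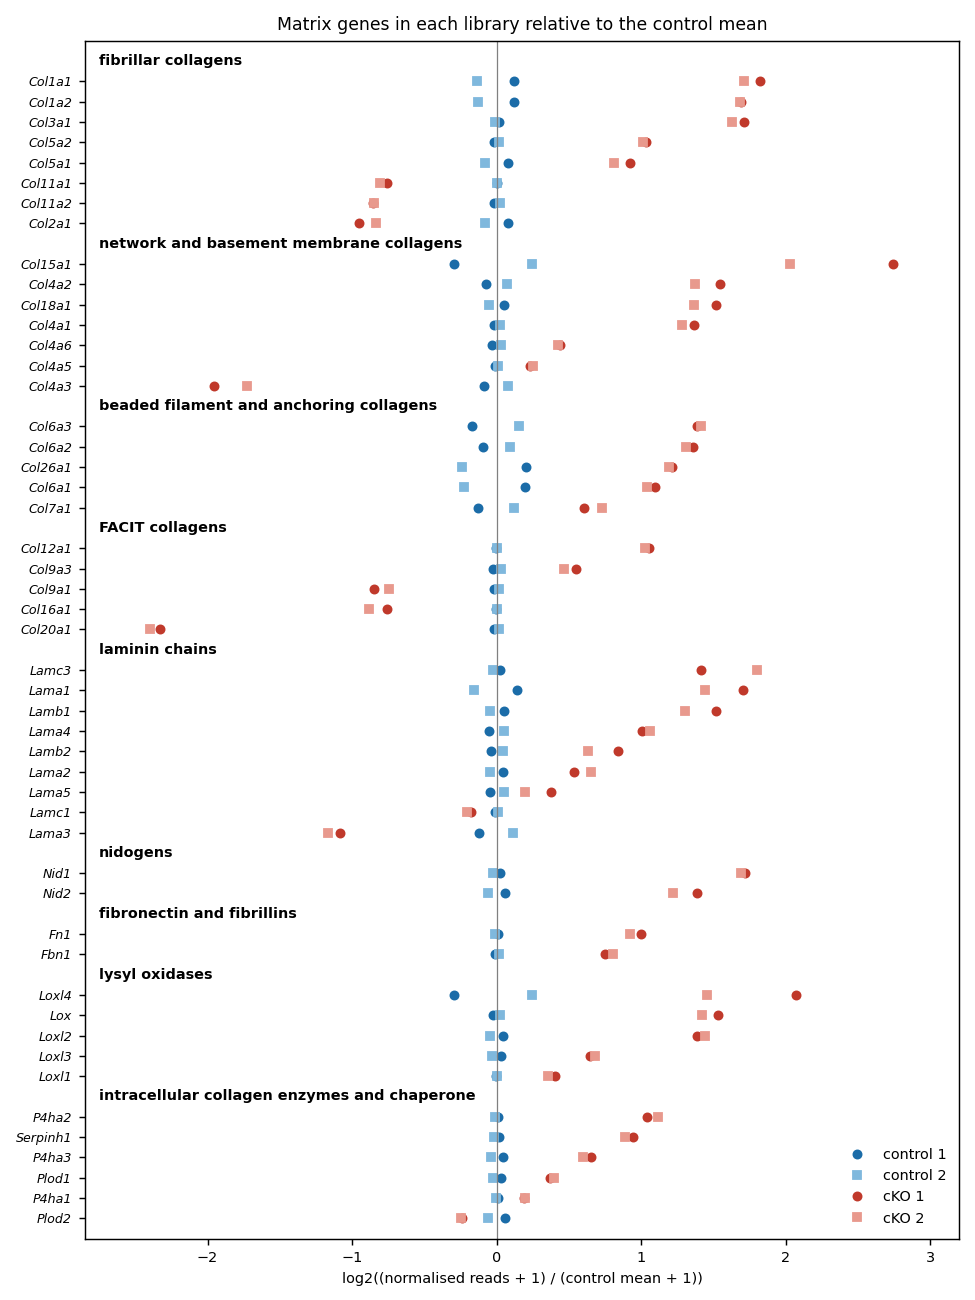
Each point is 1 library's level of 1 gene relative to the control mean, as log2 of normalised reads plus 1 (x axis), with the 49 genes grouped by role (y axis), circles for replicate 1 and squares for replicate 2. The cKO libraries (red) lie to the right of the controls (blue) for 39 genes and to the left for 10, with Col20a1 farthest to the left and Col15a1 farthest to the right.

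Fibrillar collagens split by type. Of 8 listed chains 5 rose and 3 fell, the median log2 change being 0.95. Chains of types I, III and V were higher in cKO cells, and those of types II and XI were lower. Col1a1 and Col1a2, the chains of type I collagen, moved together. Col1a1 (ENSMUSG00000001506, chromosome 11 from 94936224 to 94953042 of GRCm38) had 420 and 351 normalised reads in controls and 1368 and 1264 in the cKO libraries. That was 3.41-fold higher (log2 change 1.77 ± 0.08 SE, adjusted p 3.47e-15 by limma). Col1a2 had 748 and 628 normalised reads in controls and 2221 and 2208 in the cKO libraries, 3.22-fold higher (log2 change 1.69 ± 0.07 SE, adjusted p 2.01e-16 by limma). Per kilobase of gene length the level of Col1a1 was 1.06 times that of Col1a2 in both controls. In cKO 1 and cKO 2 it was 1.17 and 1.08 times. What the given gene length counts is not stated, and before division by it Col1a2 had more normalised reads in every library. As background, the type I trimer holds more alpha 1 than alpha 2 chains, which these RNA ratios do not measure. Col3a1, which forms fibrils with type I collagen, had the highest level per length among the chains that rose in this group, 179 normalised reads per kilobase in controls and 570.5 in the cKO cells. It had 1778 and 1745 normalised reads in controls and 5767 and 5432 in the cKO libraries, 3.18-fold higher (log2 change 1.67 ± 0.04 SE, adjusted p 4.72e-20 by limma). Col5a1 and Col5a2, chains of type V collagen that start fibrils, rose less, 1.83-fold and 2.03-fold, the log2 change of Col5a1 going from 0.87 to 0.45 when the trend with GC content was removed (GC correction).

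The promoters of a type I and the type III chain are shown because both genes rose together by about the same factor from windows of different make-up. These and later windows run from 250 bases before to 50 after the RefSeq start in GRCm38.p6, and 30 of the 49 genes had one. Capitals mark matches, on either strand, to 5 motifs: the TATA box is spelt TATAAA, the CCAAT box is spelt CCAAT and the GC box is spelt GGGCGG. The AP-1 site is spelt TGANTCA, and the core bound by Sox factors is ACAAAG. No match overlaps another in the windows shown.
Col1a2, chr6:4505368-4505667, plus strand: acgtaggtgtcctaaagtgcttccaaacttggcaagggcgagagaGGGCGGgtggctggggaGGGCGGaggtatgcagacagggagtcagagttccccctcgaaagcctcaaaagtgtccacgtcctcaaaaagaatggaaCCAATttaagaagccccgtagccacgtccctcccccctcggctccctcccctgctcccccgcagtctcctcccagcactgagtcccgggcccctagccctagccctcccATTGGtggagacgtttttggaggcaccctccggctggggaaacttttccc
Col3a1, chr1:45311288-45311587, plus strand: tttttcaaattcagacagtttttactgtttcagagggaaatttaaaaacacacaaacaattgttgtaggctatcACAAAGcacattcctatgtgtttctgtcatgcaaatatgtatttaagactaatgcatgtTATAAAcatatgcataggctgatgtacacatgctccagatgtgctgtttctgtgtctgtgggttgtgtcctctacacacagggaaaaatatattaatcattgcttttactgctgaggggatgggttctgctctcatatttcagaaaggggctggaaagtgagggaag
The Col1a2 window holds 2 CCAAT boxes and 2 GC boxes and has 61.0% GC, while the Col3a1 window holds a TATA box and a Sox core and has 37.7% GC. A match is a description of letters and not evidence of binding.

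Types II and XI are best known from cartilage. Col11a1 was by far the most abundant fibrillar chain of the controls, at 570.2 normalised reads per kilobase. It had 7261 and 7273 normalised reads in controls and 4293 and 4160.2 in the cKO libraries, 1.72-fold lower (log2 change -0.78 ± 0.04 SE, adjusted p 5.11e-15 by limma, and -0.45 with the trend with gene length removed). Col11a2 fell 1.80-fold, from 1016 and 1046 to 569.9 and 573 normalised reads. The level per kilobase of Col11a1 was 3.83 and 3.73 times that of Col11a2 in controls and 4.04 and 3.89 times in cKO 1 and cKO 2. Col2a1, whose product forms a trimer with both, was at a much lower level per kilobase, 15.2 normalised reads in controls and 8.12 in the cKO cells. Its values were 148 and 132 normalised reads in controls and 71.9 and 78.3 in the cKO libraries (log2 change -0.89 ± 0.17 SE, adjusted p 1.03e-04 by limma). After GC correction the log2 changes of Col11a2 and Col2a1 were -1.34 each, and that of Col11a1 was -0.60.

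The order of levels changed with these opposite shifts. In the controls, Col11a1 stood at 570.2 normalised reads per kilobase against 179 for Col3a1, and in the cKO cells at 332 against 570.5. The difference between the controls' values of either gene was small beside these gaps, 7261 against 7273 for Col11a1 and 1778 against 1745 for Col3a1.

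Basement membrane collagens rose, apart from 1 chain. Type IV collagen has 6 chain genes that lie in head-to-head pairs, and 5 of the 6 were listed. Col4a1 and Col4a2 form the common type IV network of nearly all basement membranes. Col4a1 had 2425 and 2491 normalised reads in controls and 6326 and 5969 in the cKO libraries, 2.50-fold higher (log2 change 1.32 ± 0.04 SE, adjusted p 2.02e-18 by limma). Col4a2 had 1123 and 1239 normalised reads in controls and 3444 and 3052 in the cKO libraries, 2.75-fold higher (log2 change 1.46 ± 0.06 SE, adjusted p 2.01e-16 by limma). The pair kept a similar balance in every library, the level per kilobase of Col4a1 being 1.91 and 1.78 times that of Col4a2 in controls and 1.63 and 1.73 times in the cKO libraries.

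The 2 genes share a promoter, on chromosome 8 of GRCm38, where Col4a1 runs from 11198423 to 11312826 on the minus strand and Col4a2 from 11312805 to 11449287 on the plus strand, so that they overlap by 22 bases. Their promoter windows are shown for that reason, with capitals for the 78 bases, from 11312777 to 11312854, that both windows contain, each read on its own strand.
Col4a1, chr8:11312777-11313076, minus strand: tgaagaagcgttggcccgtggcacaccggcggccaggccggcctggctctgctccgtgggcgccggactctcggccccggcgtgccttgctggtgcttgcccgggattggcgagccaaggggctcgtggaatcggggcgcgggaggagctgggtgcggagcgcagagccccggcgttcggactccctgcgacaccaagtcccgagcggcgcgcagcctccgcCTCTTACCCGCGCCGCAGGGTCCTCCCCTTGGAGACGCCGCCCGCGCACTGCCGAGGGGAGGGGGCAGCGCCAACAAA
Col4a2, chr8:11312555-11312854, plus strand: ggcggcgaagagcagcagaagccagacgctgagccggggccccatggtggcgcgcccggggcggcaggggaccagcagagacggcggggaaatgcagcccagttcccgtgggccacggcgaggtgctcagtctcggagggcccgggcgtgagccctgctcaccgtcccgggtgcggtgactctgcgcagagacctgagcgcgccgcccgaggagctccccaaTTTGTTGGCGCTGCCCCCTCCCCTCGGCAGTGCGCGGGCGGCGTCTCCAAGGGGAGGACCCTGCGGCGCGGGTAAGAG
These windows are rich in GC, 74.0% and 73.7%, and each holds 1 CCAAT box, with 1 GC box in the Col4a1 window and 3 in the Col4a2 window. No TATAAA was found in either.

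A second pair, Col4a5 and Col4a6 on the X chromosome, lies head to head with 1308 bases between the genes and changed far less. Col4a5 had 2742 and 2784 normalised reads in controls and 3241 and 3283 in the cKO libraries, 1.18-fold higher (log2 change 0.24 ± 0.04 SE, adjusted p 3.47e-05 by limma). Col4a6 rose 1.35-fold, from 1176 and 1225 to 1626 and 1608 normalised reads. Neither passed once the GC trend was removed, with log2 changes of 0.10 each, whereas removing the trend with gene length gave 0.40 and 0.65. In the controls the level per kilobase of Col4a1 was 0.796 and 0.806 times that of Col4a5, and in the cKO libraries 1.76 and 1.64 times. Col4a3, a chain of the mature kidney glomerulus that pairs with the chain of Col4a5, went the other way. Col4a3 had 176 and 198 normalised reads in controls and 47.4 and 55.8 in the cKO libraries, 3.62-fold lower (log2 change -1.84 ± 0.18 SE, adjusted p 3.66e-09 by limma).

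Col15a1 and Col18a1 encode the multiplexins, collagens with sugar chains found in basement membranes of vessels, and the end of the Col18a1 product is the source of endostatin. Col18a1 had 1044 and 974 normalised reads in controls and 2889 and 2599 in the cKO libraries, 2.72-fold higher (log2 change 1.44 ± 0.06 SE, adjusted p 1.86e-16 by limma). Col15a1 had the largest rise of all 49 genes, 5.51-fold, but from a low level: 27 and 39.7 normalised reads in controls and 229 and 139 in the cKO libraries (log2 change 2.41 ± 0.24 SE, adjusted p 4.24e-09 by limma). The cKO libraries differed from each other more for Col15a1 than for Col18a1, cKO 1 lying well above cKO 2.

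Beaded filament and anchoring collagens were grouped here with Col26a1, which is of neither kind. All 5 listed genes of this group rose, and their median log2 change, 1.22, was the value of Col26a1. Type VI collagen, which links basement membranes to the surrounding tissue, needs 1 chain each of Col6a1, Col6a2 and Col6a3 for its trimer, and these rose 2.10-fold, 2.54-fold and 2.66-fold. Col6a1 had 321 and 239 normalised reads in controls and 598 and 575 in the cKO libraries, and Col6a3, the scarcest per kilobase of the 3 genes, had 46 and 58.0 against 137 and 140.02. Col6a2 had 84 and 95.7 against 232 and 224 normalised reads. No library of one genotype reached the range of the other for these chains, as was so for 6939 of the 6940 listed genes. Col26a1 had 251 and 184 normalised reads in controls and 505 and 499.6 in the cKO libraries, 2.31-fold higher. After GC correction the log2 change of Col6a1 went from 1.08 to 0.67 and that of Col26a1 from 1.22 to 0.79. Col7a1, which makes the anchoring fibrils of skin, rose 1.59-fold, from 102 and 121 to 169.8 and 185 normalised reads, and did not pass after GC correction (log2 change 0.21).

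FACIT collagens, which sit on the surface of fibrils and do not form fibrils alone, gave both the deepest fall and members that rose. Of 5 listed chains 2 rose and 3 fell, the median log2 change being -0.80. Col20a1 (ENSMUSG00000016356, chromosome 2 from 180986535 to 181018363) had 5586 and 5716 normalised reads in controls and 1126 and 1070.3 in the cKO libraries. That was 5.15-fold lower (log2 change -2.36 ± 0.05 SE, adjusted p 1.86e-22 by limma), the largest fall among the 49 genes. In level per length Col20a1 went from rank 2 of the 49 genes in the controls, at 1099 normalised reads per kilobase, to rank 19 in the cKO cells, at 214. Its promoter window is shown as that of the gene that fell most, with motif matches in capitals as above.
Col20a1, chr2:180986285-180986584, plus strand: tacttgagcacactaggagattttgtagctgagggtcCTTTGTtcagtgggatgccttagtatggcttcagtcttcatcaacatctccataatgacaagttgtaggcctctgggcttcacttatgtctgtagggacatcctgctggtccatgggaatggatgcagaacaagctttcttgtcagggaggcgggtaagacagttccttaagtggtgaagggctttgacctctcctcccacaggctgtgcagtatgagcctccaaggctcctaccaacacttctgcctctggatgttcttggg
The window has 50% GC and holds 1 Sox core, on the reverse strand, and none of the other 4 motifs.

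Col16a1, which binds fibrils and integrins, was also abundant, with 6106 and 6150.5 normalised reads in controls and 3614 and 3320.1 in the cKO libraries, 1.77-fold lower (log2 change -0.82 ± 0.04 SE, adjusted p 2.29e-14 by limma, and -1.28 after GC correction). The chains of type IX collagen, a trimer of 3 different chains that coats type II fibrils, moved apart. Col9a1 fell 1.74-fold, from 799 and 821 to 449.9 and 482 normalised reads. Col9a3 had 2873 and 2985 normalised reads in controls and 4294 and 4045 in the cKO libraries, 1.42-fold higher (log2 change 0.51 ± 0.04 SE, adjusted p 3.36e-10 by limma), but its value after GC correction was 0.07 and did not pass. Per kilobase Col9a3 was the more abundant by far, at 760.2 normalised reads in the controls against 159.8 for Col9a1. Col9a3 lies 364 kb from Col20a1 on the same strand of chromosome 2, and of the 8 pairs of successive genes of this set within 500 kb of each other it is the 1 pair with opposite directions. As 39 of the 49 genes were higher, most pairs of them share a direction at any distance. Neighbouring pairs of other listed genes were not counted. Col12a1, a FACIT chain of dense connective tissue, had 1020 and 1027 normalised reads in controls and 2123 and 2082 in the cKO libraries, 2.05-fold higher (log2 change 1.04 ± 0.05 SE, adjusted p 2.74e-14 by limma).

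**Figure D2:**
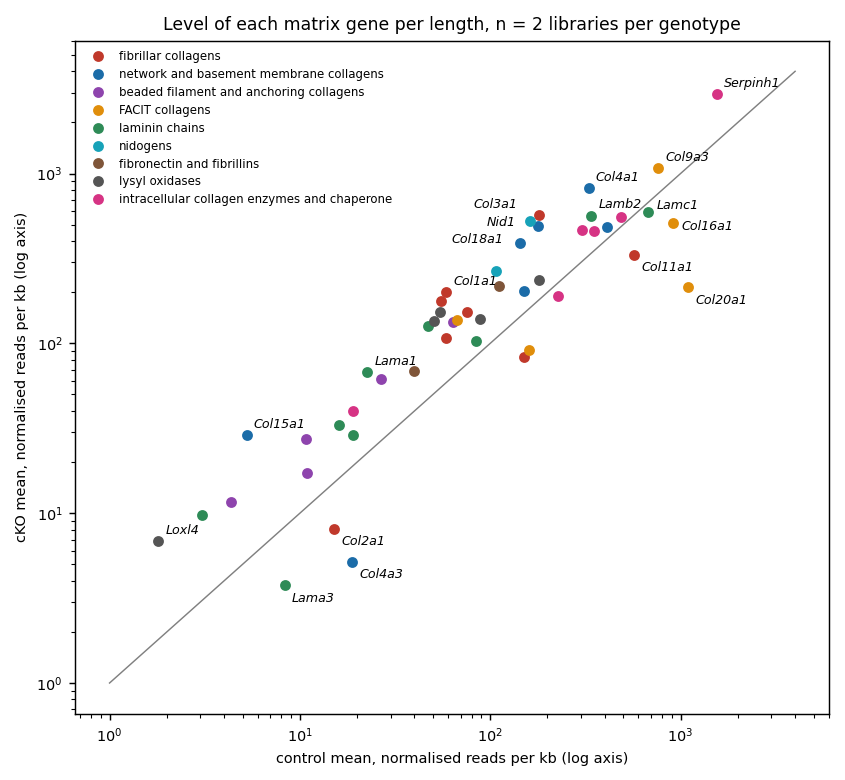
Each point is 1 gene, with its mean level in controls (x axis) and in cKO cells (y axis) in normalised reads per kilobase on log axes, n = 2 libraries per genotype, coloured by role; the diagonal marks equal levels. Col20a1 (1099 and 214), Col16a1 and both type XI chains lie under the line, as does Col4a3, while Col9a3 (760.2 and 1082), the other 4 listed type IV chains, the type I and type III chains and the nidogens lie above it.

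Laminins are trimers of 1 alpha, 1 beta and 1 gamma chain that start basement membrane assembly at the cell surface. Of 9 listed chains 7 rose and 2 fell, the median log2 change being 0.74. Lama1, the alpha chain of the embryonic and meningeal laminin, had 242 and 196 normalised reads in controls and 717 and 598 in the cKO libraries, 3.00-fold higher (log2 change 1.58 ± 0.11 SE, adjusted p 8.01e-12 by limma). Lama4, the alpha chain typical of vessel walls, rose 2.05-fold, from 187 and 201 to 389 and 406 normalised reads. Lama2, the chain of muscle, nerve and astrocyte-facing laminin whose loss impairs myelination, rose 1.51-fold, from 319 and 300.3 to 449.9 and 488 normalised reads (log2 change 0.60, and 1.05 with the length trend removed). The most abundant alpha chain per kilobase was Lama5, at 84.2 normalised reads in controls and 103 in the cKO cells. It had a log2 change of 0.28 that turned to -0.16 after GC correction, and was 0.47 with relative log expression scaling and 0.57 with the length trend removed. Lama3, the alpha chain of epithelial laminin, was the exception, at 82 and 96.7 normalised reads in controls and 41.6 and 39.2 in the cKO libraries, 2.21-fold lower (log2 change -1.12 ± 0.22 SE, adjusted p 1.44e-04 by limma).

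Both listed beta chains rose. Lamb1 had 486 and 454 normalised reads in controls and 1344 and 1158 in the cKO libraries, 2.66-fold higher (log2 change 1.41 ± 0.08 SE, adjusted p 8.88e-14 by limma). Lamb2, the beta chain of mature vessels and synapses, had 2000 and 2119.7 against 3686 and 3188 normalised reads, 1.67-fold higher (log2 change 0.74, and 0.30 after GC correction). The level per kilobase of Lamb2 was 6.71 and 7.61 times that of Lamb1 in controls and 4.47 and 4.49 times in the cKO libraries.

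The gamma chain common to most laminins did not follow. Lamc1 had 5534 and 5619 normalised reads in controls and 4919 and 4846 in the cKO libraries, 1.14-fold lower (log2 change -0.19 ± 0.04 SE, adjusted p 9.74e-05 by limma); its value was -0.12 with TMM scaling, -0.00 with relative log expression scaling, where the call was lost, 0.03 with the trend with gene length removed and -0.35 after GC correction. Its mean level per kilobase was 674 normalised reads in controls, the highest of the laminin chains in both control libraries, and 590.2 in the cKO cells. In cKO 1 Lamb2 was slightly higher (606 against 595 for Lamc1), and in cKO 2 it was lower (524 against 586). Summed over the 5 alpha chains, the level per kilobase was 0.223 times that of Lamc1 in both controls and 0.415 and 0.385 times in cKO 1 and cKO 2. For the sum of the beta chains these ratios were 0.565 and 0.580 in controls and 1.25 and 1.09 in the cKO libraries. On that measure beta chain mRNA went from less to more than that of Lamc1. These ratios within a library do not depend on its scaling, but they do depend on the gene length that the authors gave. They were not recomputed after GC correction, which took the log2 change of Lamb2 from 0.74 to 0.30 and that of Lamc1 from -0.19 to -0.35. Lamc3 was scarce, with 19 and 18.3 normalised reads in controls and 51.4 and 67.6 in the cKO libraries (log2 change 1.61 ± 0.30 SE, adjusted p 6.77e-05 by limma).

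**Figure D3:**
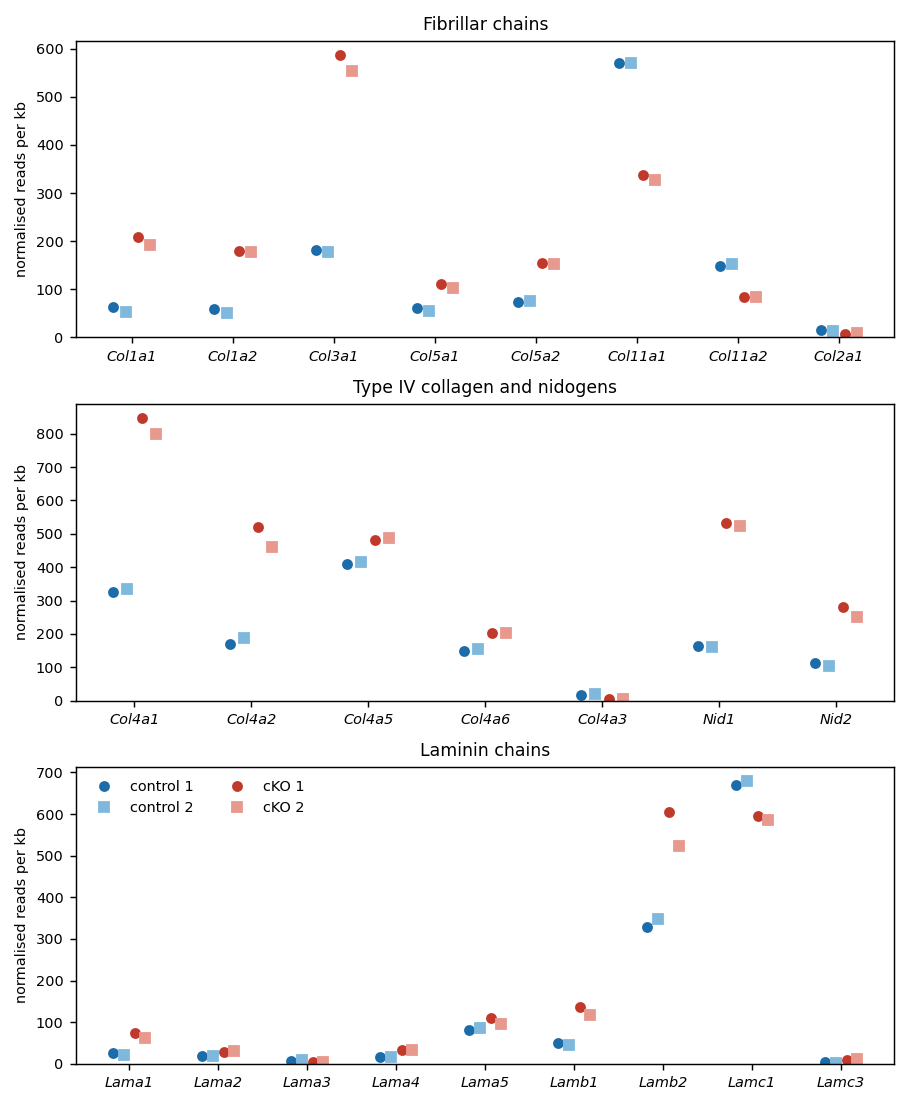
Level of each chain in each library in normalised reads per kilobase (y axes, from 0) for fibrillar collagens (top), type IV collagen and nidogens (middle) and laminins (bottom), circles for replicate 1 and squares for replicate 2. Col4a1 rises above Col4a5 in the cKO libraries, Col3a1 rises above Col11a1, and Lamb2 goes from 339 to 565 on average while Lamc1 goes from 674 to 590.2.

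Nidogens, which bridge the laminin and type IV collagen networks, both rose by a large factor. Nid1 had 1145 and 1109 normalised reads in controls and 3708 and 3631 in the cKO libraries, 3.26-fold higher (log2 change 1.70 ± 0.05 SE, adjusted p 2.25e-19 by limma). Nid2 had 579 and 531 against 1450.1 and 1296 normalised reads, 2.47-fold higher (log2 change 1.30 ± 0.07 SE, adjusted p 9.81e-14 by limma). The level per kilobase of Nid1 was 1.47 and 1.55 times that of Nid2 in controls and 1.91 and 2.09 times in the cKO libraries. Fn1, whose product fibronectin is assembled on cells by integrins and slows oligodendrocyte maturation in lesions, had 1309 and 1292 normalised reads in controls and 2601 and 2469 in the cKO libraries, 1.95-fold higher (log2 change 0.96 ± 0.05 SE, adjusted p 4.39e-14 by limma, and 0.63 after GC correction). Fbn1, the main fibrillin of elastic microfibrils, rose 1.72-fold, from 479 and 489 to 816 and 847 normalised reads (log2 change 0.78, and 0.50 after GC correction).

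Lysyl oxidases, copper enzymes that cross-link collagen and elastin, were listed for all 5 genes and all 5 rose, the median log2 change being 1.42. Lox had 258 and 267 normalised reads in controls and 759 and 705 in the cKO libraries, 2.79-fold higher (log2 change 1.48 ± 0.09 SE, adjusted p 5.48e-13 by limma). Loxl2, which acts on the type IV network, had 281 and 265 against 715 and 744 normalised reads, 2.67-fold higher. Loxl3 rose 1.58-fold, from 414 and 396 to 634 and 648 normalised reads (log2 change 0.66, and 0.32 after GC correction). Loxl1 was the most abundant of the family per kilobase, at 181 normalised reads in controls and 235 in the cKO cells, and changed least. The value of 0.38 (log2 change) turned to -0.08 after GC correction, and was 0.57 with relative log expression scaling and 0.22 with the length trend removed. Loxl4 was scarce, with 6 and 9.16 normalised reads in controls and 35.1 and 22.5 in the cKO libraries (log2 change 1.79 ± 0.46 SE, adjusted p 1.87e-03 by limma), so its fold rests on few reads.

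Enzymes and the chaperone that act on collagen inside the cell changed by smaller factors. Of 6 listed genes 5 rose and 1 fell, the median log2 change being 0.51. Serpinh1, which encodes the collagen chaperone Hsp47, was the most abundant of the 49 genes per kilobase in both genotypes, at 1552 normalised reads in controls and 2926 in the cKO cells. It had 3834 and 3749 normalised reads in controls and 7289.7 and 7008 in the cKO libraries, 1.89-fold higher (log2 change 0.91 ± 0.04 SE, adjusted p 4.21e-16 by limma, and 0.50 after GC correction). Among the prolyl hydroxylase subunits, which make the helix stable at body temperature, P4ha2 rose 2.12-fold from 119 and 117 to 244 and 257 normalised reads, and P4ha3 rose 1.54-fold from 977 and 922 to 1490.1 and 1439 (log2 change 0.62, and 0.25 after GC correction). The most abundant, P4ha1, had 2016 and 1994 normalised reads in controls and 2281 and 2291 in the cKO libraries. Its log2 change of 0.19 became 0.38 with relative log expression scaling and 0.40 after GC correction, and did not pass with the length trend removed (0.11). The lysyl hydroxylases had small changes of opposite sign. Plod1 had 2428 and 2339 normalised reads in controls and 3084 and 3141 in the cKO libraries, with a log2 change of 0.39 that became -0.00 after GC correction. Plod2, which hydroxylates the ends of collagen chains, had 1267 and 1169 against 1032 and 1028 (log2 change -0.24, adjusted p 1.72e-03 by limma), but it turned to 0.23 after GC correction, and did not pass with relative log expression scaling (-0.05) or without control 1 (-0.18).

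Other genes of the matrix were read from 3 lists of partners, processing factors and receptors. All listed genes of these lists passed limma's test, as did 100% of all listed genes, of which 46.7% were higher in cKO cells. Of 31 partners of basement membranes and microfibrils 20 were listed, 18 higher and 2 lower, the median log2 change being 0.65. The largest rises were those of Smoc2, a calcium-binding matrix protein with only 10.1 ± 4.15 normalised reads in the controls against 33.65 ± 8.99 in the cKO cells (SD, n = 2 each), and Tgfbi, an adhesion protein, from 367 ± 21.0 to 1084 ± 11.5 (SD, n = 2 each). Both listed falls were in abundant genes: Agrn, the heparan sulfate proteoglycan agrin, went from 9308 ± 78.2 to 6659 ± 266, and Pxdn, the peroxidase that cross-links type IV collagen, from 2672 ± 24.7 to 2033 ± 57.1 (SD, n = 2 each). The log2 change of Agrn, -0.48, became -0.90 after GC correction, -0.29 with relative log expression scaling and -0.24 with the length trend removed, and that of Pxdn, -0.39, became -0.20 with that scaling and -0.15 with the length trend removed.

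Genes of collagen folding, secretion and processing were listed for 22 of 30, 17 higher and 5 lower, the median log2 change being 0.63. Creb3l1, a transcription factor of the endoplasmic reticulum that acts on collagen genes, rose from 137 ± 0.316 to 318 ± 6.52 normalised reads, and its relative Creb3l2 fell from 2539 ± 55.1 to 1345 ± 9.65 (SD, n = 2 each). Adamts2, which trims the amino end of procollagen, rose from 322 ± 5.18 to 718 ± 0.445, while Colgalt2, a galactosyltransferase of collagen, fell from 421 ± 18.2 to 247 ± 1.83 (SD, n = 2 each). After GC correction the log2 change of Creb3l1 went from 1.21 to 0.76.

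Matrix receptors were listed for 21 of 28, 15 higher and 6 lower, the median log2 change being 0.41. Mrc2, a receptor that takes up collagen fragments, rose from 239 ± 6.60 to 580.7 ± 30.9 normalised reads, and Itga11, the integrin chain of fibroblasts that binds collagen, rose from 19.2 ± 0.243 to 47.5 ± 10.2 (SD, n = 2 each). Itgb3, a beta chain of receptors for fibronectin and vitronectin, fell from 215 ± 15.8 to 107 ± 12.9, and Cd47, which binds thrombospondin and integrins, fell from 1646 ± 0.507 to 1233 ± 38.9 (SD, n = 2 each). The log2 change of Cd47, -0.42, became -0.23 with relative log expression scaling, and did not pass after GC correction (-0.09). That of Mrc2 went from 1.28 to 0.85 after GC correction.

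**Figure D4:**
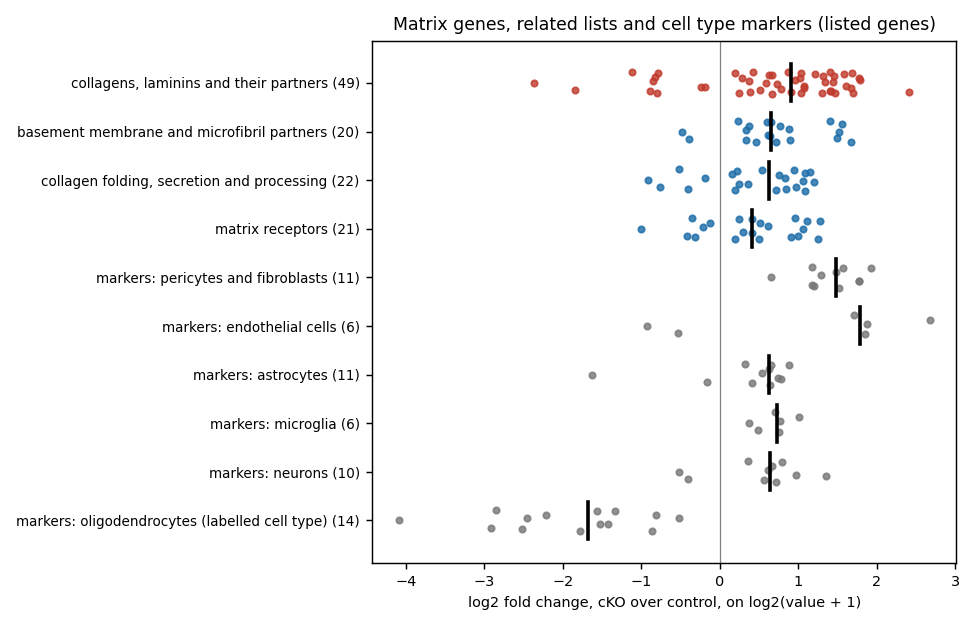
Each point is the log2 change of 1 listed gene, cKO over control on log2(value + 1) (x axis), by list (y axis, number of listed genes in brackets), and black bars are medians. The median is 0.91 for the 49 matrix genes, 0.65, 0.63 and 0.41 for the 3 related lists, 1.48 for pericyte and fibroblast markers and -1.68 for oligodendrocyte markers.

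In properties that the choice by symbol did not use, the 49 genes had a median gene length, as given in the authors' deposited table without a statement of what it counts, of 6943 bases against 4892.5 for all listed genes, and a higher GC content, 54.2% against 49.8%. Across the 49 genes the log2 change had almost no linear relation to GC content (Pearson's r -0.02, Spearman's rho -0.01) or to log2 gene length (-0.01 and -0.00), and a weak inverse one to the log2 control level per kilobase (-0.35 and -0.41). Those are descriptions over genes that share the same 4 libraries, and the last pair shares the control values on both axes. A GC box was found in 24 of the 33 promoter windows of these genes, 72.7%, where 35.7% of all 32851 windows had one. By gene, 23 of the 30 with a window held a GC box in at least 1 window. The windows of these genes were also richer in GC, with a median of 61.0% against 52.7%. Of the genes with a window, 20 of 25 that were higher in cKO cells and 3 of 5 that were lower held a GC box. The other motifs were found in 33.3% of the 33 windows (CCAAT box, against 37.4% of all windows), 12.1% (TATA box, against 13.6%), 6.06% (Sox core, against 18.7%) and 3.03% (AP-1 site, against 7.81%).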

How the data were processed

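RNA was measured in 4 libraries, 2 control and 2 cKO. Per the file headers, the table the authors deposited gives each library's normalised signal for a gene, next to gene length, log2 fold change and p-values before and after adjustment. The submitters' processing notes name DESeq2 and the builds mm10 and GRCm38; for the aligner, counting tool and strand setting nothing is given in the sources used here, so reads of overlapping genes, such as Col4a1 and Col4a2 at their starts, cannot be told apart. The signal is read counts over 1 size factor per library: within 0.01 read, 100% of values were whole multiples of 1.00, 1.02, 0.816 and 1.19 in control 1, control 2, cKO 1 and cKO 2. These sums cover listed genes, not whole libraries. The 6940 listed genes are 40.0% of the 17347 behind the authors' adjustment, as read from their p-values, and columns of other samples numbered 0. Zdhhc5 was not analysed here, so the genotype labels were not checked by it.

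Genotypes were compared with limma 3.58.1 in R 4.3.3 on log2(value + 1), a scale that understates the change of low genes, with a variance trend, a single term for genotype, 2 residual degrees of freedom, for genes with a value of at least 1 in 2 libraries (all listed genes passed). P-values were adjusted by Benjamini-Hochberg over 17347 genes, and adjusted p under 0.05 was a call; since the authors had selected these genes on the same libraries, calls are not independent evidence and pooled variances may be too small. Folds of named genes are ratios of mean normalised reads. The scripts were tested on simulated data. GC content came from GENCODE M21 transcripts. Alternatives were other pseudocounts, filter, scalings, tests, adjustment and trends, the replicate block and leaving out each library. The other scalings and the GC and length trends were computed from the listed genes only, all selected for a difference between genotypes. How far that selection shaped the shifts they gave was not tested. The genes, lists, tests and naming rule were chosen with earlier results of these data known. By that rule every chosen gene may be named, and the largest 2 rises and falls of each related list. The marker genes Dcn, Pdgfrb, Kdr, Vwf, Eng, Emcn, Tie1, Cdh5, Gfap, S100b, Aqp4, Map2, Dcx and Olig1 were named after their values were seen. Replicates of a genotype differed beyond sampling noise, with a mean chi-square per gene of 2.31 for controls and 3.22 for cKO libraries (1 for sampling alone).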

Additional observations from a re-analysis of the deposited data

How the results depend on the processing

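The 39 higher and 10 lower calls among the 49 genes were the same in number with pseudocounts of 0.5 and 5, a filter of at least 10, TMM scaling, the quasi-likelihood test of edgeR, DESeq2 and adjustment over listed genes only. Of the 49 genes, 39 kept their direction and call in all 15 alternatives. Relative log expression scaling shifted the listed genes upward, by 0.19 at the median, and left 39 higher and 8 lower; the median of the 49 genes, 0.91, became 1.11 with it, 0.98 with TMM scaling, 1.09 with the trend with gene length removed (38 higher, 9 lower) and 0.63 with the trend with GC content removed (33 higher, 9 lower). Removing the GC trend moved the log2 fold change of 22 of the 49 genes by over 1.5 times. It reversed Lama5 (-0.16), Loxl1 (-0.081), Plod1 (-0.0016) and Plod2 (0.23), and removing the length trend reversed Lamc1 (0.030); the cause was not tested. With the GC trend removed, fewer than 23 genes were at least 2-fold higher. Col4a1 (0.91), Col18a1 (0.99), Nid2 (0.91), Col6a1 (0.67), Col6a2 (0.92), Col26a1 (0.79) and P4ha2 (0.74) went under that limit, and no gene newly reached it. Col2a1, Col9a1, Col11a2 and Col16a1 became at least 2-fold lower. Leaving out 1 library gave 39 higher in each case, 9 to 10 lower and medians from 0.87 to 0.95, with 1 residual degree of freedom and the lone library of a genotype assumed to vary like the other genotype. With the replicate number as a block, 39 were higher and 10 lower, with a median of 0.91; the numbers did not pair the libraries (correlation of deviations across genes 0.01).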
